A study of Mus musculus with 7 samples.

Results

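The autophagy and mitophagy genes comprised every gene whose symbol begins with Atg and a number, together with 26 named genes of autophagy initiation, membrane conjugation, cargo receptors and lysosome control. On the Mouse Gene 2.0 ST array 42 of these genes were measured by a probeset with exactly 1 annotated symbol, out of 22180 such genes in all. They were 18 Atg genes and 24 of the 26 named genes. Where a gene had several probesets, which was the case for Gabarap alone, its brightest probeset by the mean of the 7 arrays was taken. The mitophagy receptor genes Bnip3l and Optn had no probeset with a single symbol and were not analysed here. The rule goes by gene name and uses no measured value, but the gene set was proposed with earlier results of these arrays known.

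The cells were G1E, a mouse line of early erythroid precursors that is without functional GATA1. The deletion group held 4 arrays of G1E cells in which Lockd, a long non-coding RNA gene beside the cell cycle inhibitor gene Cdkn1b, had been removed with CRISPR/Cas9. The control group held 3 arrays of G1E cells with Lockd intact. No other treatment is given for either group, and all cells were cultured in the medium of the line. The samples are called clones of the line, but the labels do not say which clone each array came from or whether replicates were separate cultures. The p-values therefore rest on the variation among these 7 samples, part of which may be technical. A deletion removes DNA together with its transcript, so that an effect of the RNA and one of the sequence cannot be told apart.

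Values are RMA expression values on the log2 scale, and every difference is deletion minus control on that scale, with the moderated standard error (SE) of limma. A value of 1 is thus a doubling, and levels of different probesets are not compared. Over the tested probesets the arrays correlated at 0.993 to 0.996. The targeted gene Lockd fell by 3.02 (SE 0.23) on the log2 scale and Cdkn1b fell by 1.14 (SE 0.10), with adjusted p = 0.0162 and 0.0251 in limma, and these were the only 2 of 23521 probesets past an adjusted p of 0.05, or 0.0085%. Neither passed once control replicate 1, 2 or 3 or deletion replicate 1 or 4 was left out, and Cdkn1b did not pass without deletion replicate 3. The progenitor markers Gata2, Kit and Myb and all erythroid markers except the embryonic globin gene Hbb-y lay above the median level of the array, and Gata1 itself read 9.29 in deletion and 9.18 in control cells. The 3 progenitor markers together had a mean level of 12.06 to 12.14 on deletion and 12.08 to 12.14 on control arrays, and the 9 erythroid markers 10.09 to 10.23 on deletion and 10.12 to 10.25 on control arrays. Among markers of other cells, 2 of 5 mast cell, 2 of 3 megakaryocyte, 1 of 4 myeloid and 0 of 3 lymphoid genes lay above the median level. The mean level of the 5 mast cell markers ran from 6.05 to 6.62 on deletion and from 5.74 to 6.74 on control arrays. The 2 mast cell genes above the median level varied widely, with Cpa3 at 9.88 to 11.48 on deletion and 9.53 to 11.97 on control arrays and Ms4a2 at 8.08 to 10.05 on deletion and 7.55 to 9.99 on control arrays, and control replicate 2 was the lowest of the 7 arrays for both. In limma 0 of the 27 markers passed the adjusted threshold. For 4 of the 27, or 14.8%, the groups did not overlap and the unadjusted p was under 0.05, where 5.19% of all genes had groups apart. These were the transferrin receptor gene Tfrc at -0.17, the megakaryocyte gene Gp9 at -0.33, and Mpo at 0.24 and Gzma at -0.30, both below the median level. The part of these markers in the results below was not tested. With bulk RNA, fewer cells of a type and less RNA per cell cannot be told apart.

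Macroautophagy encloses cytoplasm or an organelle in a double membrane and delivers it to the lysosome. A kinase complex around ULK1 starts the process, a class III phosphatidylinositol 3-kinase marks the membrane, and the ATG9 and ATG2 proteins supply lipid. A pair of ubiquitin-like conjugation systems then attaches proteins of the LC3 and GABARAP families to the membrane, where cargo receptors bind them. In maturing red cells the same machinery clears mitochondria, ribosomes and other organelles, and the receptor NIX, encoded by Bnip3l, is known for its part in mitochondrial clearance in reticulocytes. TFEB and TFE3 are transcription factors of lysosome and autophagy genes and bind the palindrome CACGTG within a longer element.

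The promoters of 4 genes are shown because they differ in the CACGTG core that TFEB and TFE3 can bind. They also differ in the shorter ACGTG, 1 form of the core of hypoxia response elements, and their transcripts are described below. Other forms of that core were not searched. The sequences are those of RefSeq in the build GRCm38.p6, taken over 250 bases before the annotated start of each gene and printed 5′ to 3′ on the gene's strand. Atg9a lies at chr1:75192011-75192260 (minus strand), Atg7 at chr6:114670846-114671095 (plus strand), Lamp1 at chr8:13158911-13159160 (plus strand) and Bnip3 at chr7:138909507-138909756 (minus strand). Capitals mark ACGTG on either strand, which includes each CACGTG, since the palindrome holds the shorter core on both strands.
Atg9a: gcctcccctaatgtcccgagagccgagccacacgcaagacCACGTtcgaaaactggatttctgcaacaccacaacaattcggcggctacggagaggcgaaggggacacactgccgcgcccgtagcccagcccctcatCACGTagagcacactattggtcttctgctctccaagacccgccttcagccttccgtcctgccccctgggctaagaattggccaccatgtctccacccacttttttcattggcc
Atg7: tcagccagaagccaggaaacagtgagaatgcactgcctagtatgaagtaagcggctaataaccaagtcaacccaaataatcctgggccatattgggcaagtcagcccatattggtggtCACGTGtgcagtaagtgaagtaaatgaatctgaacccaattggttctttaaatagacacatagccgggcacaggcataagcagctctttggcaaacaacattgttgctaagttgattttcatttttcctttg
Lamp1: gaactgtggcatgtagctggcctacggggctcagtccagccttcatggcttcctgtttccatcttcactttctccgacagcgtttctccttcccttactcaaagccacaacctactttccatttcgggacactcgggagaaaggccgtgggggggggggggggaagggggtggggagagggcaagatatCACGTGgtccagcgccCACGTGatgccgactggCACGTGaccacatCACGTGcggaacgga
Bnip3: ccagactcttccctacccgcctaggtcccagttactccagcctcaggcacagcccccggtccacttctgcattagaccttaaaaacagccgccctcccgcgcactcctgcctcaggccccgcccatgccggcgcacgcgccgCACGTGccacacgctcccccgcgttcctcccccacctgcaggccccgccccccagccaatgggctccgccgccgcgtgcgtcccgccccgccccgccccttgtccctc
The Lamp1 window held 4 copies of CACGTG, those of Atg7 and Bnip3 held 1 each, and that of Atg9a held 2 ACGTG cores on the reverse strand and no full palindrome. Of the 36 members with a window, 4 held CACGTG, or 11.1%, and 13 held ACGTG, or 36.1%. Over all 27025 genes with a window the shares were 6.86% for CACGTG and 18.5% for ACGTG. A match describes these letters only, and the sources used here do not say where the array's probes lie relative to these starts.

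No autophagy or mitophagy gene differed between deletion and control cells past the threshold. Of the 42 members 0 passed in limma, with Benjamini-Hochberg adjustment across the 23521 probesets, and every member had an adjusted p of 0.999. At an unadjusted p under 0.05 there was 1 member, Atg9a, or 2.38%, where 4.64% of all tested probesets had one, 2.37% on the lower side as Atg9a was. The groups did not overlap for 1 member, again Atg9a, or 2.38%, against 5.19% of all genes, 2.54% with the deletion arrays lower. The median difference over the members was -0.02 and that over all genes was 0.01. On the lower side lay 26 of the 42 members, or 61.9%, and 47.8% of all genes. That count of 26 was 24 after a further quantile normalization, or 57.1% against 44.9% of all genes. With each array centred on its median it was 29, or 69.0% against 57.9%. It ran from 23 to 29 when single arrays were left out, where all genes stood at 47.4% to 49.4%. The members' differences ran from -0.22 for Atg9b to 0.12 for Map1lc3a.

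The size of change was bounded gene by gene with 95% intervals, which were not adjusted for the number of genes. These intervals rest on the variation among the samples, part of which may be technical. The 95% intervals of all 42 members lay between -0.48 and 0.39, or changes of -28.4% to 30.8%, where Cdkn1b on the same arrays fell by 54.7%. Differences under 0.1 in size were found for 36 of the 42 members, or 85.7%, and for 75.5% of the 11200 genes above the median level, where 41 of the members lay. The within-group SD had a median of 0.08 over the members and 0.10 over all genes above the median level. It was 0.18 for Map1lc3a, the widest of the members, and 0.03 for Becn1, the narrowest. The compression of fold changes at dim probesets is not covered by these intervals. Atg9b, the 1 member below the median level of 5.69, read 5.30 in deletion and 5.51 in control cells. Tfeb, with a mean of 5.83 over all arrays, lay little above that level.

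**Figure D1:**
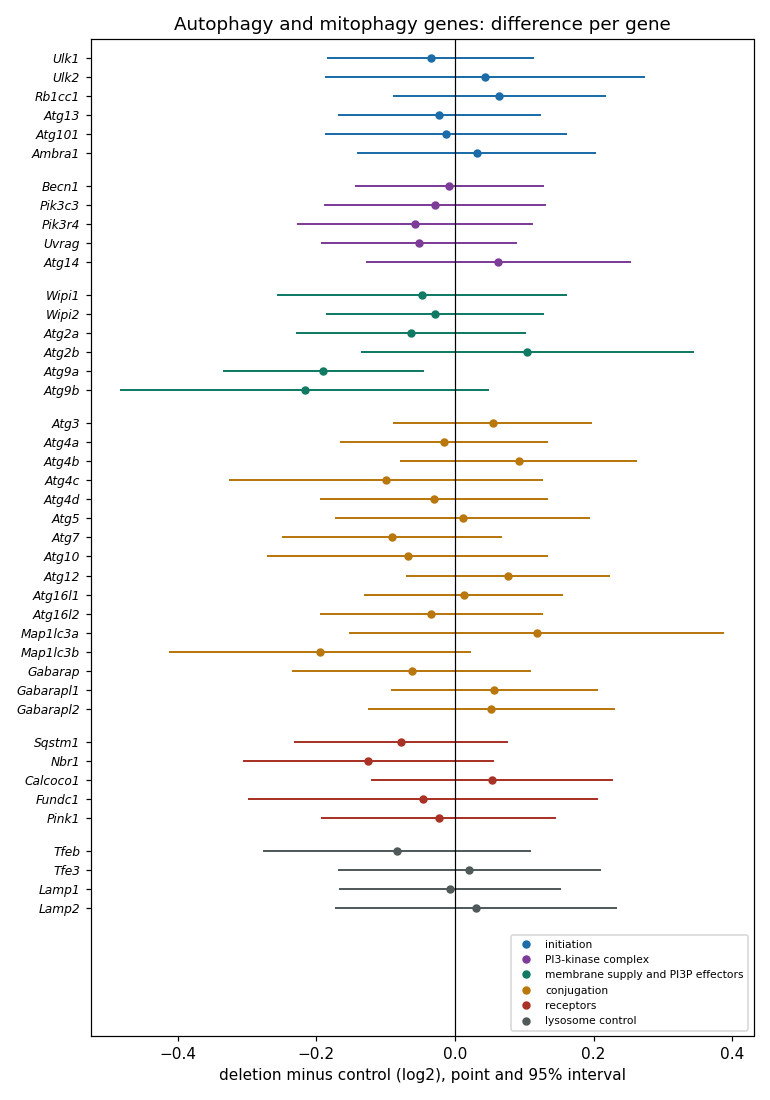
Deletion minus control difference on the log2 scale (x axis) for each of the 42 genes (y axis, coloured by role), with points for the estimate and lines for the 95% interval. The interval of Atg9a lay below 0 and those of the other 41 genes spanned 0.

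No gene of initiation differed past the threshold. ULK1 and ULK2 are the kinases of the starting complex, RB1CC1 (also called FIP200), ATG13 and ATG101 are its other subunits, and AMBRA1 is a scaffold that links it to Beclin 1. Rb1cc1, with the largest difference of the 6 genes, read 9.40, 9.45, 9.55 and 9.46 on the deletion arrays and 9.34, 9.42 and 9.44 on the control arrays. The groups overlapped, and deletion replicate 3 was the highest of the 7 arrays. Its difference was 0.06 (SE 0.07, 95% interval -0.09 to 0.22). The others lay at -0.04 for Ulk1, 0.04 for Ulk2, -0.02 for Atg13, -0.01 for Atg101 and 0.03 for Ambra1. Of the 6 genes 3 were lower and 3 higher, with a median of 0.01, and 0 had an unadjusted p under 0.05 in limma.

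The subunits of the phosphatidylinositol 3-kinase complex also showed no difference past the threshold. PIK3C3 is the lipid kinase, PIK3R4 its regulatory subunit and BECN1 the shared core subunit, while ATG14 directs the complex to autophagosome formation and UVRAG defines an alternative complex of endosomes. Atg14 read 7.14, 7.13, 7.27 and 7.13 on the deletion arrays and 7.19, 7.19 and 6.95 on the control arrays. The deletion values lay within the range of the control arrays but for replicate 3, and control replicate 3 was the lowest of all. The difference of Atg14 was 0.06 (SE 0.08, 95% interval -0.13 to 0.25), and it was -0.02 without control replicate 3. Becn1 averaged 9.12 ± 0.03 (SD, n = 4) in deletion and 9.13 ± 0.03 (SD, n = 3) in control cells, a difference of -0.01 (SE 0.06). Pik3c3 differed by -0.03, Pik3r4 by -0.06 and Uvrag by -0.05. Of these 5 genes 4 were lower, with a median of -0.03 and 0 at an unadjusted p under 0.05.

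Atg9a, the gene of a lipid scramblase carried on vesicles that seed the autophagosome, was the 1 member whose groups did not overlap. It read 8.51, 8.61, 8.59 and 8.53 on the deletion arrays and 8.80, 8.73 and 8.72 on the control arrays. Every deletion array lay below every control array, and the gap between the groups was wider than the range within either. The difference was -0.19 (SE 0.06, 95% interval -0.33 to -0.05), which is a change of -12.3%, bounded by -20.6% and -3.16%. In limma it had an unadjusted p of 0.0155 and an adjusted p of 0.999, so that it did not pass. Its difference stayed between -0.21 and -0.16 in every alternative run, with unadjusted p values from 0.0061 to 0.287 and adjusted p values of 0.676 or more. The unadjusted p in limma was over 0.05 without control replicate 1, at 0.0557, and with either form of replicate block. A block draws its difference only from arrays whose number occurs in both groups. With the title numbers this left out deletion replicate 4. With the description numbers it left out control replicate 1 and deletion replicates 3 and 4, so that these p values rest on fewer arrays.

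Atg9b, the paralogue of Atg9a, had the largest difference of the 42 members at -0.22 (SE 0.12, 95% interval -0.48 to 0.05). It read 5.13, 5.35, 5.40 and 5.31 on the deletion arrays and 5.77, 5.33 and 5.45 on the control arrays. Control replicate 1 stood above the other 6 arrays and the groups overlapped. Without that array the difference was -0.09, and without control replicate 2 it was -0.31. ATG2A and ATG2B are the lipid transfer proteins that work with ATG9, and WIPI1 and WIPI2 are adaptors that bind the lipid made by PIK3C3. Atg2b lay at 0.10 (SE 0.10), which was 0.04 without deletion replicate 2 and 0.17 without control replicate 2. Atg2a lay at -0.06, Wipi1 at -0.05 and Wipi2 at -0.03. Over the 6 genes the median was -0.06, with 5 lower and 1 at an unadjusted p under 0.05, Atg9a.

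**Figure D2:**
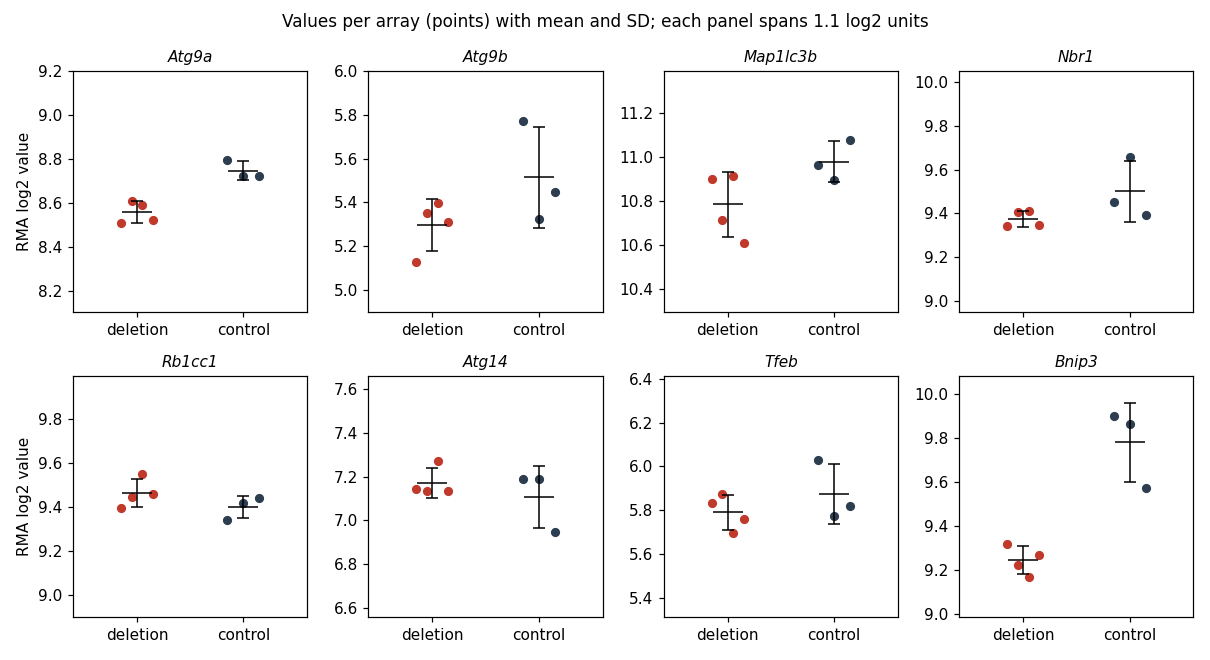
RMA log2 value (y axis, each panel spanning the same width) of 8 genes on each array, with deletion arrays left and control arrays right. Points are arrays and bars the mean with the SD over 4 deletion and 3 control arrays, and the groups are apart for Atg9a and for Bnip3.

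Conjugation was represented by 16 genes, and 0 of them passed the test. ATG7 is the activating enzyme of both systems, ATG3 and ATG10 are the transferring enzymes, and ATG12, ATG5 and ATG16L1 form the complex that directs the attachment. Atg7 averaged 8.41 in deletion and 8.50 in control cells, a difference of -0.09 (SE 0.07), and its promoter window held 1 CACGTG. Atg3 lay at 0.05, Atg10 at -0.07, Atg12 at 0.08, Atg5 at 0.01 and Atg16l1 at 0.01, with Atg16l2, a related gene, at -0.03. Their 7 intervals reached down to -0.27 and up to 0.22. The ATG4 proteases trim LC3 and GABARAP proteins and release them again, and their genes lay at -0.02 for Atg4a, 0.09 for Atg4b, -0.10 for Atg4c and -0.03 for Atg4d.

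The LC3 and GABARAP genes, which encode the proteins coupled to the membrane, spread more widely. Map1lc3b, the gene of LC3B, read 10.90, 10.72, 10.91 and 10.61 on the deletion arrays and 10.97, 10.89 and 11.08 on the control arrays. Deletion replicates 1 and 3 lay just above control replicate 2, so that the groups overlapped, and deletion replicate 4 was the lowest of all. The difference was -0.19 (SE 0.09, 95% interval -0.41 to 0.02) with an unadjusted p of 0.0726 and a Benjamini-Hochberg adjusted p of 0.999 in limma, and it was -0.14 without deletion replicate 4 and -0.24 without deletion replicate 3. Map1lc3a, the gene of LC3A, read 6.40, 6.47, 6.47 and 6.63 on the deletion arrays and 6.30, 6.17 and 6.66 on the control arrays. Its control arrays spanned the whole range of the deletion arrays, and its difference of 0.12 (SE 0.12) was 0.26 without control replicate 3 and 0.02 without control replicate 2. Gabarap lay at -0.06 (SE 0.07) with its brighter probeset and at -0.09 (SE 0.11) with its other one. Gabarapl1 and Gabarapl2 lay at 0.06 and 0.05. Whether probes of these related genes also bind each other's transcripts was not tested. Over the 16 conjugation genes 8 were lower and 8 higher, with a median of 0.00 and 0 at an unadjusted p under 0.05 in limma.

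None of the 5 receptor genes passed the test. SQSTM1, also called p62, NBR1 and CALCOCO1 tie cargo to LC3 proteins, FUNDC1 is a receptor in the outer mitochondrial membrane, and PINK1 is a kinase that marks damaged mitochondria. Nbr1 read 9.34, 9.40, 9.41 and 9.35 on the deletion arrays and 9.45, 9.66 and 9.39 on the control arrays. Control replicate 2 was well above the rest, and control replicate 3 lay among the deletion arrays. The difference of Nbr1 was -0.12 (SE 0.08, 95% interval -0.30 to 0.05), and it was -0.05 without control replicate 2 and -0.18 without control replicate 3. Sqstm1 averaged 10.79 ± 0.06 (SD, n = 4) in deletion and 10.87 ± 0.06 (SD, n = 3) in control cells, a difference of -0.08 (SE 0.07). Calcoco1 lay at 0.05, Fundc1 at -0.05 and Pink1 at -0.02. Of the 5 genes 4 were lower, with a median of -0.05 and 0 at an unadjusted p under 0.05.

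Bnip3, a hypoxia-induced mitophagy receptor gene outside the member list, had a larger difference than any of the 42 members. It read 9.32, 9.22, 9.16 and 9.27 on the deletion arrays and 9.90, 9.86 and 9.57 on the control arrays. The groups did not overlap, and the difference of -0.54 (SE 0.09) was a change of -31.0%, bounded by -40.4% and -20.2%. With a limma adjusted p of 0.855 it did not pass. Bnip3 had been listed for its earlier known difference, so that this value is a description. The other mitochondrial receptor genes measured were nearer to 0, with Fundc1 at -0.05, Bcl2l13 at -0.06, Fkbp8 at 0.02 and Phb2 at 0.00.

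The regulators and membrane proteins of the lysosome among the members did not differ past the threshold either. Tfeb read 5.83, 5.88, 5.69 and 5.76 on the deletion arrays and 6.03, 5.77 and 5.82 on the control arrays. Control replicate 1 was the highest array and the other 2 control arrays lay among the deletion arrays. The difference of Tfeb was -0.08 (SE 0.08, 95% interval -0.28 to 0.11), and it was -0.01 without control replicate 1. Tfe3 lay at 0.02 (SE 0.08). Lamp1 and Lamp2, the genes of the abundant glycoproteins of the lysosomal membrane, lay at -0.01 (SE 0.07) and 0.03 (SE 0.09). Lamp1, with 4 copies of CACGTG in its promoter window, averaged 11.93 in deletion and 11.94 in control cells. The other members with the palindrome, Atg3, Atg5 and Atg7, lay at 0.05, 0.01 and -0.09. A link between the palindrome and these differences was not tested.

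**Figure D3:**
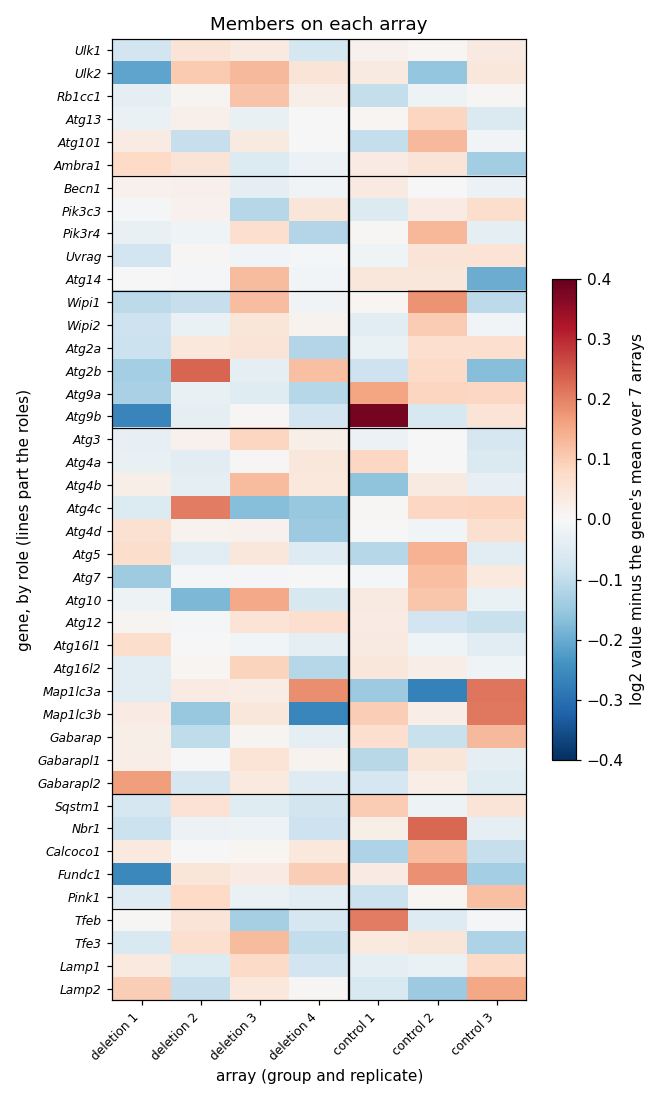
Log2 value of each of the 42 genes (rows, grouped by role) on each array (columns, deletion left and control right), minus the gene's mean over the 7 arrays. No role shows a block of one colour across a group, and single cells such as Atg9b on control replicate 1 stand out.

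Single arrays differed in how often they held the extreme of a member. Control replicate 2 was the highest of the 7 arrays for 10 of the 42 members, or 23.8%, against 19.2% of all genes. Deletion replicate 3 was the highest for 10 members, or 23.8%, against 12.1% of all genes, and deletion replicate 4 for 1 member, or 2.38%, against 12.6%. Deletion replicate 1 was the lowest for 9 members, or 21.4%, against 12.8% of all genes, and control replicate 3 for 10, or 23.8%, against 14.5%. Control replicate 2 was the lowest for 2 members, or 4.76%, against 22.0% of all genes. Arrays of both groups were thus among the high and the low ones.

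Further genes of the pathway were taken from lists of 124 genes in 5 groups, of which 116 were measured. In limma 0 of them passed. Leaving out Bnip3, which was listed for its known difference, 3 of 115 had an unadjusted p under 0.05, all lower, or 2.61%, and 7 had groups that did not overlap, or 6.09%. The shares over the whole array are the 4.64% and 5.19% given above. Of the 18 other selective autophagy genes, the groups did not overlap for Bnip3, for Ncoa4, the ferritin receptor gene of iron release, at -0.19 (SE 0.09), and for Tollip at -0.07. Ncoa4 read 9.09, 9.09, 9.17 and 8.82 on the deletion arrays and 9.26, 9.18 and 9.26 on the control arrays, and deletion replicate 4 was the lowest. The difference of Ncoa4 was -0.12 without that array. The 14 other early autophagy genes had a median of 0.00, with the smallest p for Rubcn, an inhibitor of the lipid kinase complex, at 0.10 (SE 0.07), or 0.05 without control replicate 3. The 14 genes of fusion with the lysosome had a median of -0.02, with the smallest p for the adaptor gene Plekhm1 at -0.18 (SE 0.09). The difference of Plekhm1 was -0.10 without control replicate 1 and -0.25 without control replicate 2.

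Upstream control by MTORC1, which restrains ULK1, and AMPK, which activates it, was read from 34 genes. Of these 34 genes 23 were lower, or 67.6%, where 47.8% of all genes were. The count was 19, or 55.9%, without control replicate 2, where all genes stood at 49.4%. Without deletion replicate 3 it was 27, or 79.4%, against 47.9% of all genes. In limma 2 of the 34 genes had an unadjusted p under 0.05, or 5.88%, against 4.64% of all tested probesets. Fnip2, a partner of folliculin, read 9.09, 9.35, 9.13 and 9.00 on the deletion arrays and 9.42, 9.48 and 9.32 on the control arrays. Deletion replicate 2 lay above control replicate 3, so that the groups overlapped, and the difference was -0.26 (SE 0.09) with an unadjusted p of 0.0213 and an adjusted p of 0.999 in limma. Ddit4, a stress-induced inhibitor of MTORC1, read 8.82, 9.24, 9.06 and 9.07 on the deletion arrays and 9.57, 9.52 and 9.05 on the control arrays. Control replicate 3 lay among the deletion arrays. Its difference was -0.33 (SE 0.14), with an unadjusted p of 0.0498 and an adjusted p of 0.999 in limma. Leaving out control replicate 3 gave -0.49 for Ddit4, and leaving out control replicate 1 gave -0.23. Rragd, the gene of a Rag GTPase that brings MTORC1 to the lysosome, had the largest difference of the 34 at -0.38 (SE 0.48). It read 5.66, 5.86, 7.26 and 6.07 on the deletion arrays and 6.43, 7.57 and 5.76 on the control arrays. Deletion replicate 3 and control replicate 2 were the high ones, and the groups overlapped. The groups did not overlap for 3 of the 34 genes, or 8.82%, against 5.19% of all genes. These were Rheb, the activator of MTORC1, at 0.09, Prkaa2 at -0.10 and Nprl2 at -0.08. Prkaa2 lay below the median level. The MTORC1 genes Mtor and Rptor lay at -0.07 and -0.10, and the AMPK catalytic gene Prkaa1 at -0.02.

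The genes of lysosomal enzymes, channels and the proton pump lay slightly to the lower side. Of the 36 genes in the list, 31 lay below 0 and the median was -0.05. Over all genes 47.8% lay below 0 and the median was 0.01. The 31 genes included Mitf, a transcription factor gene, at -0.05 and below the median level of the array. In limma 0 of the 36 passed and 1 had an unadjusted p under 0.05, or 2.78%. That gene was Ctns, which encodes the cystine exporter of the lysosome. Ctns read 8.46, 8.37, 8.52 and 8.42 on the deletion arrays and 8.57, 8.60 and 8.65 on the control arrays, with no overlap and a difference of -0.16 (SE 0.07). Atp6v1d, a proton pump subunit, also had groups apart, at -0.14 (SE 0.07). Groups were thus apart for 2 of the 36 genes, or 5.56%, against 5.19% of all genes. The count rested in part on control replicate 3, since 24 of the 36 genes lay below 0 without that array, with a median of -0.02, and 27 lay below 0 without deletion replicate 4, with a median of -0.03. Of the 29 genes with a promoter window 11 held CACGTG, or 37.9%, against 6.86% of all genes. Among those 11 genes 10 were lower with a median of -0.05, and among the 18 without it 14 were lower with a median of -0.05. A link between CACGTG and the differences of these genes was not tested.

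**Figure D4:**
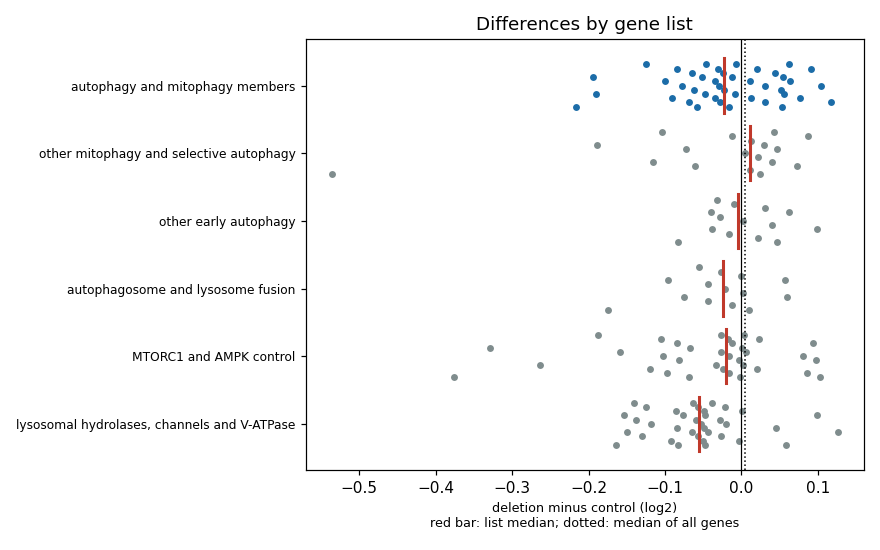
Deletion minus control difference on the log2 scale (x axis) for the 42 members and for 5 further gene lists (rows), with 1 point per gene, a red bar at the list median and a dotted line at the median of all genes. Bnip3 at -0.54 is the point farthest from 0, and the lysosomal list has a median of -0.05.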

How the data were processed

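The authors deposited log2 expression values of 7 Affymetrix arrays. Per the submitters' processing notes, they used RMA and the Affymetrix Expression Console. The sources used here name no version, library file or genome build. RMA gives no detection calls, low values were kept, and the number of arrays limits the precision.

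Of 41345 probesets, 23521 had exactly 1 gene symbol in the platform annotation and were tested, covering 22180 genes. Groups came from the sample titles. Differences were fitted in R 4.3.3 with limma 3.58.1 (lmFit, eBayes), both groups in 1 fit, two-sided, without covariate or level filter, with Benjamini-Hochberg adjustment over all tested probesets and a threshold of 0.05. The fit was tested on simulated data with known changes. That check required recovery only of changes larger than any member's. It does not show how often differences of the members' size would pass. All members were named; values of every array are given for members with an unadjusted p under 0.05 or groups apart and for the largest difference of each role, and further pathway genes are named by an unadjusted p under 0.05 or groups apart (up to 5 a list), else the smallest p. Other genes, such as Rragd, single markers and the mitochondrial receptors, were named, and array values of Map1lc3a and of pathway genes given, after their values were seen. The members and lists were chosen with earlier results of these data known. Alternatives covered replicate blocks, left-out arrays, filters, moderation, weights, scaling and probeset averaging.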

Additional observations from a re-analysis of the deposited data

Results flagged for a closer look

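Within the 4 deletion arrays, 2 of the 42 members had a single array far from the other 3 by Dixon's criterion. Atg14 read 7.27 on deletion replicate 3 and 7.13 to 7.14 on the other deletion arrays. Atg7 read 8.30 on deletion replicate 1 and 8.44 to 8.45 on the others. Chance alone flags about 1 in 20 such groups. Lockd, the targeted gene, read 4.17 on deletion replicate 3 and 5.09 to 5.15 on the others. Groups of 3 control arrays were too small for this criterion.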

How the results depend on the processing

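The count of 0 members past an adjusted p of 0.05 held in every alternative run. Atg9b left the fit when probesets below the median level were dropped. The count of probesets past the threshold was 2, and it was 0 with the replicate block from the titles, with that from the description field and with all probesets of the value table tested, and 0 to 2 when single arrays were left out. Members at an unadjusted p under 0.05 numbered 1, against 0 with either replicate block, 2 with trended and robust moderation, 2 with array weights, and 0 to 2 when single arrays were left out. Members with groups apart numbered 1, against 2 after quantile normalization, 2 after centring and 1 to 6 when single arrays were left out, settings added after seeing the data, where leaving out an array makes a gap easier to reach. The numbers in the titles gave no sign of pairs. Deviations of same-numbered arrays from their group means correlated at 0.02, 0.06 and -0.10 over probesets. No control array correlated best with the deletion array of its own title number. By the description numbers, control replicate 2 matches deletion replicate 1 and control replicate 3 matches deletion replicate 2. The deviations of these arrays correlated at -0.17 and -0.10. Such correlations cannot exclude a shared culture or batch. The block changed no adjusted call for a member, but it compares only arrays whose number occurs in both groups and so rests on fewer arrays. The second member at an unadjusted p under 0.05 was Atg9b without control replicate 2, Atg4c without deletion replicate 2 and Map1lc3b without deletion replicate 3, beside Atg9a, and Map1lc3a without control replicate 3, while without control replicate 1 there was 0. Members with groups apart numbered 5, 6 and 3 without control replicates 1, 2 and 3, and 4, 3, 1 and 2 without deletion replicates 1 to 4. The share of all genes with groups apart rose as well when an array was left out. Without control replicate 2 it was 14.29% of the members and 14.27% of all genes, and without deletion replicate 1 it was 9.52% and 8.56%. With single arrays left out, the share ran from 2.38% to 14.29% for the members and from 8.09% to 15.04% for all genes.

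Small differences changed sign, all of them not past the threshold in any fit. These were, with the description number as a block, Rb1cc1 at -0.0072, Becn1 at 0.031, Atg4b at -0.0074, Atg4d at 0.011, Atg5 at -0.035, Tfeb at 0.058 and Lamp2 at -0.0019; with array weights, Atg101 at 0.027 and Atg16l1 at -0.0012; after a further quantile normalization, Atg101 at 0.0088 and Becn1 at 0.0016; with the title number as a block, Atg4d at 0.014 and Lamp1 at 0.017; with each array centred on its median, Atg5 at -0.013, Atg16l1 at -0.011 and Tfe3 at -0.0028. When single arrays were left out, 18 members crossed 0, with ranges of Ulk2 at -0.022 to 0.12, Atg13 at -0.058 to 0.014, Atg101 at -0.064 to 0.048, Ambra1 at -0.029 to 0.066, Becn1 at -0.023 to 0.0081, Pik3c3 at -0.064 to 0.0053, Atg14 at -0.018 to 0.10, Wipi1 at -0.11 to 0.028, Wipi2 at -0.058 to 0.014, Atg4a at -0.049 to 0.022, Atg4d at -0.055 to 0.014, Atg5 at -0.042 to 0.084, Atg16l1 at -0.0089 to 0.035, Fundc1 at -0.13 to 0.033, Pink1 at -0.073 to 0.029, Tfe3 at -0.035 to 0.056, Lamp1 at -0.034 to 0.029 and Lamp2 at -0.033 to 0.12. The values with the description number as a block rest on control replicates 2 and 3 and deletion replicates 1 and 2 alone. Those with the title number as a block equal the values without deletion replicate 4. The cause of the sign changes was not tested.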
